A study of Homo sapiens with 3 samples.

Results

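YBX1, CSDC2 and LIN28B each encode a protein with a cold-shock domain, and the peaks of YBX1 occupancy named for these 3 genes were collected from both replicates of a ChIP-seq experiment. A peak belonged to the set when the gene names in the authors' annotation, which can list several genes for a peak, included 1 of the 3 symbols. The rule found 10 of 40159 peaks: 5 of 22874 in replicate 1 and 5 of 17285 in replicate 2. The experiment used HEL, an established human erythroleukaemia line that carries mutated JAK2, grown without drug treatment. Crosslinked, sheared chromatin was precipitated with an antibody to YBX1 (Abcam EP2708Y), and 1 library of input chromatin from the same line served as the control for both replicates. The labels name no mock immunoprecipitation and no cells without YBX1, and they do not say whether the replicates were separate cultures.

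The cold-shock domain is an ancient nucleic-acid-binding fold that contacts single-stranded RNA and DNA. YBX1 (YB-1) was first described as a factor for the Y-box, a promoter element built around an inverted CCAAT sequence, and it also packages messenger RNA and takes part in splicing and translation. LIN28B pairs a cold-shock domain with zinc knuckles and blocks maturation of the let-7 microRNAs, a role best known in embryonic and fetal blood cells. CSDC2 (PIPPIN) is a small cold-shock protein described as an RNA-binding protein of the brain.

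The 3 loci behaved differently. CSDC2 had 3 intron peaks in each replicate, LIN28B had 1 intergenic peak in each, and YBX1 itself had 1 weak exon peak in each, in different exons. The CSDC2 and LIN28B peaks that overlapped between replicates all lay on a tandem repeat of the unit TCCA, whereas neither YBX1 peak carried a repeat label. No peak of any of the 3 genes was placed in a promoter. The share of all peaks placed in promoters is not given here, so this absence is not read as a trait of the 3 genes. Of the 5 peaks of each replicate, 3 overlapped a peak of the other replicate by at least 1 bp, beside 54.0% of all peaks of replicate 1 and 77.6% of all peaks of replicate 2. Both replicates were called against the same input, so the lists are not independent.

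**Figure D1:**
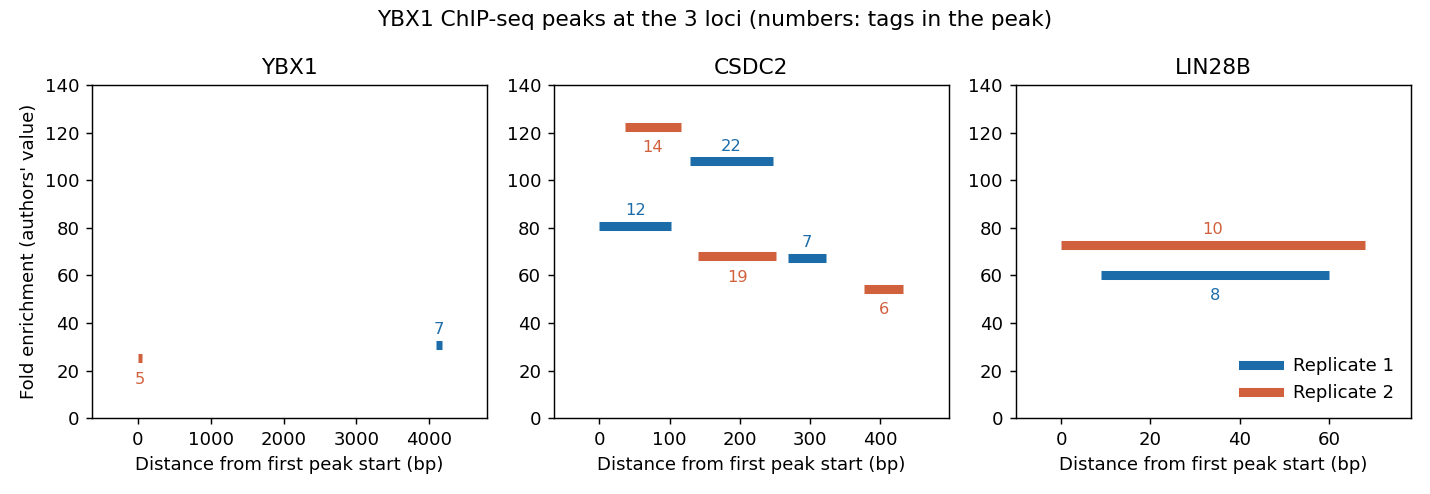
Peaks at YBX1, CSDC2 and LIN28B, with the distance in bp from the first peak start on the horizontal axis and the authors' fold enrichment on the vertical axis. Each bar is 1 peak, its length the peak's width, its colour the replicate and the number beside it the tags. The YBX1 bars of 7 and 5 tags stand apart, while CSDC2 has 2 overlapping pairs and LIN28B 1.

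At the YBX1 gene itself the replicates marked different exons. In replicate 1 the peak was in exon 7 of 8 (hg19 chr1:43166612-43166693), was 82 bp wide and held 7 tags, which are sequenced reads counted after removal of duplicates (exact 95% Poisson interval 2.81 to 14.4). In replicate 2 the peak was in exon 5 of 8 (chr1:43162526-43162581), was 56 bp wide and held 5 tags (1.62 to 11.7), the lowest number in either list. These intervals cover counting error only and take no account of the caller's cutoff. They overlap, but the counts come from different exons, so the overlap does not measure agreement between replicates. The authors' fold enrichment, which divides the tags at the peak's summit by a local background, was 30.6 in replicate 1 and 25.1 in replicate 2. Both values lie below the median of all peaks, which was 53.9 and 54.4.

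The exon peaks of YBX1 were 4030 bp apart, and each was the nearest peak of the other replicate. Apart from this pair the gene stood in a stretch without peaks. Before the exon 5 peak the nearest other peak, 66.8 kb from it, was an 8-tag peak of replicate 2 in an intron of CCDC30. After the exon 7 peak the nearest other peak, 357 kb from it, was a 6-tag peak of replicate 1. That peak lay near SLC2A1, the gene of the glucose transporter GLUT1. Sites with weaker signal could not enter the lists, since no listed peak held fewer than 5 tags, so the empty stretch does not show absence of YBX1.

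The promoter is where a Y-box factor has classically been sought. The YBX1 promoter, where no peak was placed in either replicate, is shown for its CCAAT sequences. The 250 bases before the gene's start are from RefSeq (GRCh38.p14, plus strand, chr1:42682168-42682417), with CCAAT and its reverse complement ATTGG in capitals.
YBX1 promoter: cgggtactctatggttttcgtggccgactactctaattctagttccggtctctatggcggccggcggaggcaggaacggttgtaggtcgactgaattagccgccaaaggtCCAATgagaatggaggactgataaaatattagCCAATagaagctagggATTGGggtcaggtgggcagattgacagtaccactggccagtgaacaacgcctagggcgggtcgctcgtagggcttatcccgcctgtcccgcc
The window holds CCAAT 2 times and ATTGG 1 time, with the first base of each 140, 108 and 92 bases before the start. Counting both strands, 32.0% of 35116 RefSeq promoter windows of this length hold at least 1 such sequence and 2.93% hold at least 3. The longer Y-box form CTGATTGG, which contains ATTGG, is not among the letters of this window on either strand, and 3.81% of the windows hold it. These matches describe the sequence and do not show binding.

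YBX1 exons also have near copies elsewhere in the genome. RefSeq lists 10 processed pseudogenes with the symbols YBX1P1 to YBX1P10, and 0 of them were named for a peak in either list. Whether the authors' annotation holds these symbols is not known, and no share over all pseudogenes is given. The count of 0 therefore does not show that the copies lack peaks. The labels and headers do not say how reads that fit both the gene and a copy were assigned, so the tags of the YBX1 exon peaks carry that uncertainty.

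Compared with the other exon peaks, both YBX1 peaks were in the lower part by fold, while their tags were near the middle in replicate 1 and at the minimum in replicate 2. In replicate 1, 23.4% of the 205 other exon peaks had a lower fold enrichment than the YBX1 peak, and the median of those peaks was 42.7. In replicate 2, 22.7% of 150 had a lower fold, with a median of 40.2. By tags, 52.2% of the other exon peaks of replicate 1 were lower and 11.2% equal, at a median of 6. In replicate 2 the YBX1 peak shared the minimum of 5 tags with 40.0% of the other exon peaks.

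The replicate 1 peak was wide for its tags. Its 82 bp exceeded the width of 95.7% of the 23 other exon peaks with 7 tags, whose median was 63 bp. In tags per 100 bp, 2.93% of the other exon peaks of replicate 1 were lower. The replicate 2 peak was closer to its peers: 63.3% of the 60 other exon peaks with 5 tags were narrower than its 56 bp, and their median was 54 bp. By tags per 100 bp, 11.3% of the other exon peaks of replicate 2 lay below it. With 1 peak in each list there is no spread for a test, and these ranks are descriptions.

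**Figure D2:**
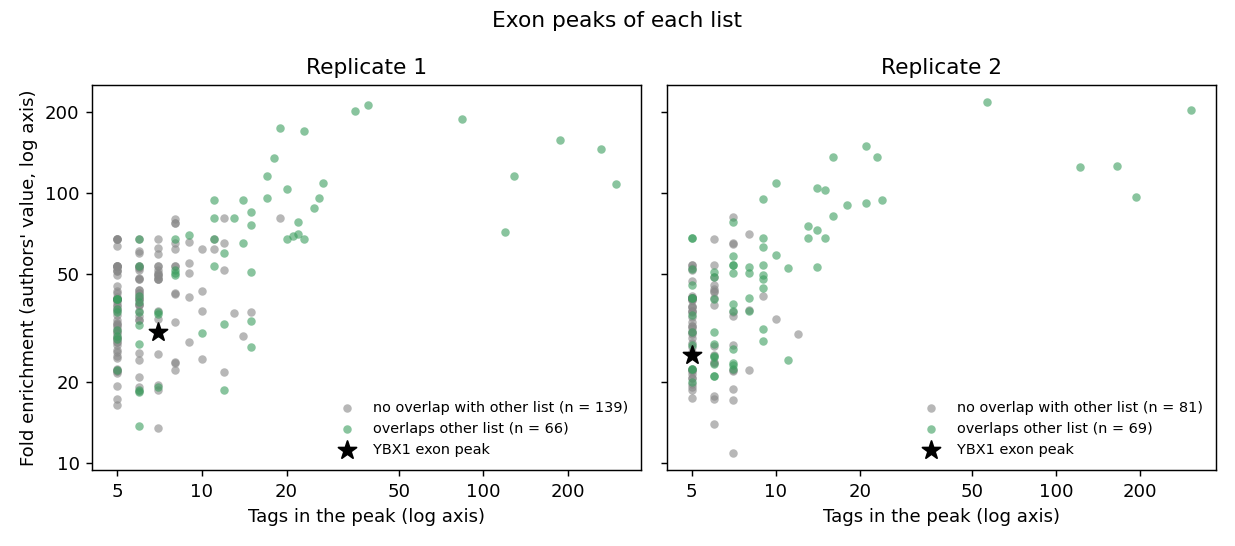
Exon peaks of replicate 1 (left) and replicate 2 (right), with tags in the peak on the horizontal and the authors' fold enrichment on the vertical axis, both logarithmic. Each point is 1 peak, green where it overlaps the other list and grey where it does not, and the star is the YBX1 peak, which lies at 7 tags and 30.6 on the left and at 5 tags and 25.1 on the right.

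The YBX1 peaks carried the label of an inner coding exon. Coding-exon labels, as at YBX1, were given to 47.1% of exon peaks in replicate 1 and 46.4% in replicate 2, and of these 88.7% and 78.6% lay in neither the first nor the last exon. Tandem repeat labels were rare among exon peaks, at 2.43% and 4.64%. Each peak has a single label, which for a peak in an exon may hide a repeat, so a repeat under the YBX1 peaks was not tested.

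Lack of overlap was also common at this strength. Among exon peaks, 32.0% of replicate 1 (95% Wilson interval 26% to 38.7%) and 45.7% of replicate 2 (38% to 53.6%) overlapped the other list. For coding-exon labels alone the shares were 23.7% and 30.0%. Among exon peaks with the same tags as the YBX1 peak, 4 of 24 with 7 tags in replicate 1 (16.7%, 6.68% to 35.9%) and 12 of 61 with 5 tags in replicate 2 (19.7%, 11.6% to 31.3%) did so. The absence of overlap at YBX1 therefore places it with most exon peaks of its tag count.

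The arrangement at YBX1, with exon peaks in both replicates that do not overlap, was rarer. Exon peaks named 177 genes in replicate 1 and 132 in replicate 2, and 58 genes were in both lists, 32.8% and 43.9% of them. In 53 of the 58 genes (91.4%) exon peaks of the replicates overlapped. YBX1 was among the 5 genes where they did not. The others, named after their values were seen, were LOC100505776 with 7 bp between the peaks, MUC2, a mucin gene, with 142 bp, and the neuroblastoma breakpoint family genes NBPF20 with 4676 bp and NBPF10 with 25065 bp. The NBPF genes belong to a family of near-identical copies, so their positions are uncertain.

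The distance itself was not unusual. In replicate 1, 31.7% of the 139 other exon peaks without overlap had a replicate 2 peak of any class within the 4030 bp seen at YBX1, and in replicate 2, 30.9% of 81 had a replicate 1 peak that near. The median distances were 37200 bp and 27074 bp.

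**Figure D3:**
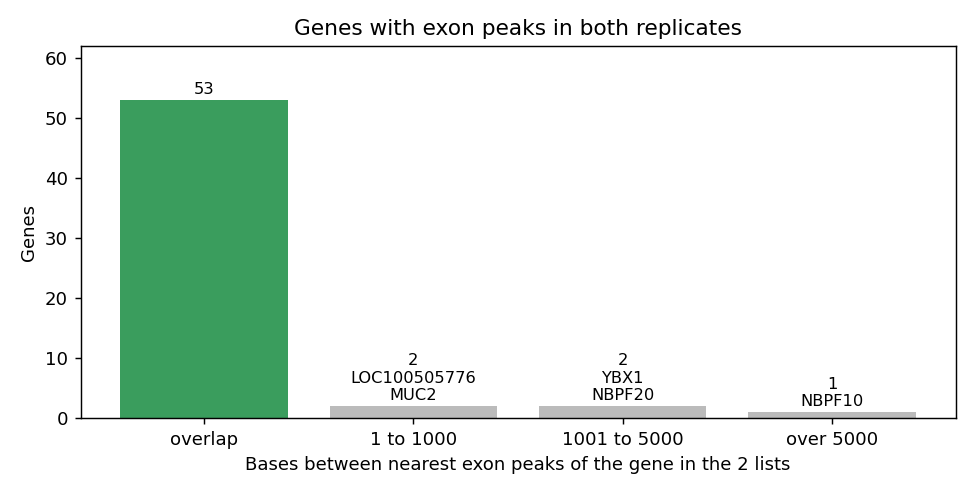
Genes with exon peaks in both replicates, counted on the vertical axis by the bases between their nearest exon peaks on the horizontal axis. Overlapping peaks account for 53 genes, and YBX1, at 4030 bp, is among the 5 others, whose names stand above the bars.

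Exon peaks with the same tags and the nearest fold came from genes of several kinds. In replicate 1 they were CD3E, a chain of the T cell receptor complex (7 tags, fold enrichment 30.3, last exon), CXADR, the coxsackievirus and adenovirus receptor (34.1, exon 4 of 7), and DBET, a non-coding transcript of the D4Z4 array (35.6). The peaks of CD3E and DBET overlapped a replicate 2 peak and that of CXADR did not. In replicate 2 they included OR4N2, an olfactory receptor (5 tags, 25.1), and PMP2, a peripheral myelin protein (26.9). Neither of these peaks overlapped a replicate 1 peak, but the nearest was 37244 bp from that of OR4N2 and 88 bp from that of PMP2. PMP2 had 2 exon peaks in each replicate and was among the genes whose exon peaks overlapped between replicates.

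The local background differed between YBX1 and CSDC2. The fold enrichment of a peak whose background was the genome-wide level rises in steps, each the worth of 1 tag at the summit: 13.5 for replicate 1 and 13.6 for replicate 2. All 6 CSDC2 peaks were whole multiples of that step, within a tolerance of 0.006, whereas 0 of the 2 YBX1 and 0 of the 2 LIN28B peaks were. The caller's local background at the YBX1 and LIN28B peaks, which it takes from input over up to 10000 bp, was thus above the genome-wide level, and input over the peaks themselves was not measured here. In both lists the summit of a peak at that level never exceeded its tags, and with this limit the background was at most 3.08 times the genome-wide level at the YBX1 peak of replicate 1 and 2.71 times at that of replicate 2. At LIN28B it was at most 1.79 and 1.87 times. Among all peaks 38.9% and 37.4% were at the genome-wide level, among exon peaks 20.9% and 20.5%, and among peaks on the repeat unit of CSDC2 51.7% and 48.5%.

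CSDC2 carried the strongest peaks of the set. They lay within 434 bp of intron sequence on chromosome 22. In replicate 1 the peaks were chr22:41968254-41968356 with 12 tags, chr22:41968383-41968501 with 22 and chr22:41968523-41968577 with 7, at fold enrichments of 80.9, 108 and 67.4. In replicate 2 they were chr22:41968291-41968370 with 14 tags, chr22:41968395-41968506 with 19 and chr22:41968631-41968687 with 6, at 122, 68 and 54.4. The first and second peaks of each replicate lay on the (TCCA)n repeat and overlapped between replicates. The third peak of each replicate carried no tandem repeat label and did not overlap a peak of the other replicate. In replicate 1 it was labelled intron 2 of 3 and in replicate 2 an L2b element, a LINE relic, with 53 bp between them. How far the repeat extends was not measured.

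The counting intervals of the CSDC2 pairs overlapped, while the order of their folds was exchanged. The first pair had 12 and 14 tags (exact Poisson intervals 6.2 to 21 and 7.65 to 23.5) and the second 22 and 19 (13.8 to 33.3 and 11.4 to 29.7). Summed over the 3 peaks, the tags of CSDC2 came to 41 in replicate 1 and 39 in replicate 2. The fold of the first pair was 1.51 times as high in replicate 2, and that of the second was 0.63 times. In whole tags at the summit these are 6 and 9 for the first pair and 8 and 5 for the second. The summits were 1 bp apart in the first pair and 25 bp apart in the second. Among the 2638 other peak pairs on this repeat unit, 2.01% had nearer summits than the first pair and 61.3% nearer than the second, and 94.7% had a lower log2 ratio of folds (replicate 2 over replicate 1) than the first pair and 24.6% than the second.

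LIN28B was named for a weaker repeat peak between genes. It lay at chr6:105349753-105349804 with 8 tags (exact Poisson interval 3.45 to 15.8) in replicate 1 and at chr6:105349744-105349812 with 10 tags (4.8 to 18.4) in replicate 2. The fold enrichments were 60.2 and 72.9, a ratio of 1.21. The whole replicate 1 peak of 52 bp fell inside the 69 bp of the replicate 2 peak, and the summits were 7 bp apart. The annotation named the peak also for HACE1, a ubiquitin ligase gene, and for LINC00577, an older name of LIN28B-AS1, the antisense neighbour of LIN28B. An intergenic peak is listed with its neighbours, so it is not assigned to LIN28B alone. The nearest other peak of either list, 252754 bp away, was a 10-tag TAGA repeat peak of replicate 1 named for HACE1 that had no overlap in replicate 2.

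Among peaks on the same repeat unit, those of CSDC2 lay above the median fold in both replicates, and that of LIN28B lay below it in replicate 1 and above it in replicate 2. Counting TCCA, TGGA and their rotations as 1 unit, here called ATCC, replicate 1 had 4579 such peaks and replicate 2 had 3728. For CSDC2 in replicate 1, 66.2% of these peaks at other genes had a lower fold than the first peak and 86.2% than the second. In replicate 2 the shares were 95.1% and 60%. For LIN28B they were 45% in replicate 1 and 71.4% in replicate 2. The medians of the ATCC peaks were 67 and 54.4.

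Overlap between replicates was usual on this unit. Of ATCC peaks in introns 65.0% of replicate 1 and 90.5% of replicate 2 overlapped the other list, and of those between genes 60.9% and 89.0%. Introns of 652 genes carried ATCC peaks in both replicates. By summed tags on the repeat, CSDC2, with 34 in replicate 1 and 33 in replicate 2, ranked 311 and 208 among them, where the medians were 32.5 and 18.

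**Figure D4:**
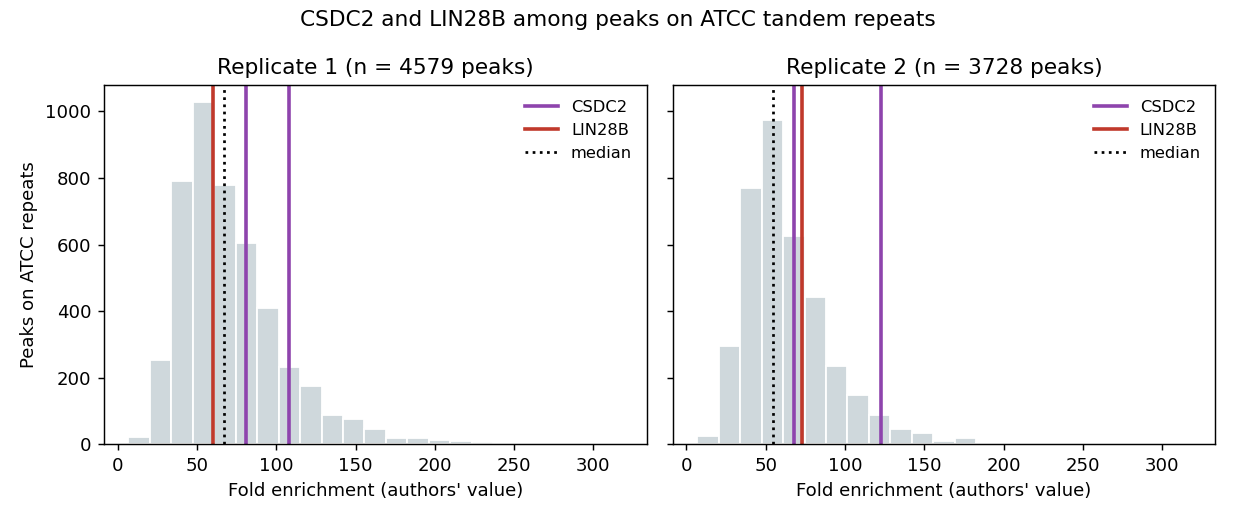
Fold enrichment (the authors' value) of all peaks on ATCC tandem repeats, as counts of peaks, in replicate 1 (left) and replicate 2 (right). Coloured lines mark the CSDC2 and LIN28B peaks and the dotted line the median, 67 and 54.4: CSDC2 lies above it in both replicates and LIN28B above it in replicate 2 alone.

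Of 7 cold-shock domain genes, YBX1, CSDC2 and LIN28B were named, and YBX2, YBX3, CARHSP1 and LIN28A were not. Over all 20056 RefSeq protein-coding genes 40.4% were named for a peak. Of the 3 named family genes, CSDC2 and LIN28B had a peak that overlapped between replicates, and over all 10830 genes named for a peak the share with such a peak was 66.7%, the same proportion as in the family. Of 8 genes listed as partners of YBX1 in messenger RNA packaging and splicing or as a kinase of the study's title, SRSF3, a splicing factor gene, was named, for intergenic peaks of up to 25 tags in replicate 1 and 21 in replicate 2.

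Most peaks that named genes of the LIN28 and let-7 pathway were intergenic, and most of those named neighbouring genes too. Of 13 genes listed for this pathway, 11 were named, 7 had an overlapping peak and 5 had any peak in their promoter, exons or introns. The shares of all RefSeq protein-coding genes were 40.4%, 26.9% and 15.3%, whereas the list also holds a microRNA gene, MIR98, which was not named. Only IGF2BP2 had an overlapping peak within the gene, and the overlapping peaks of the other listed genes were intergenic. Gene length and spacing, which bear on how often a gene is named, were not matched, and the difference was not tested. DICER1, the ribonuclease that makes mature microRNAs, had 5 intergenic peaks in replicate 1 and 6 in replicate 2, all overlapping, with highest folds of 121 and 136. DGCR8, the partner of DROSHA, shared with many neighbouring genes an intergenic cluster of 12 and 14 peaks that reached 229 and 150. IGF2BP2, an RNA-binding protein gene and let-7 target, had intron peaks led by 135 and 95.2. TUT7, which adds uridines to let-7 precursors, had 1 intergenic peak in each replicate (80.9 and 54.4). TUT4, its relative that LIN28 recruits, and DIS3L2, the nuclease that degrades the uridylated precursors, each had 1 intron peak in replicate 1, of 5 and 8 tags, and none in replicate 2. Of 14 let-7 genes and host genes in RefSeq, only the host MIRLET7BHG was named, for 6 intergenic peaks in each replicate. The let-7 microRNA genes themselves were not named. Of all RefSeq microRNA genes, a set that leaves out host genes, 27.9% were named.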

How the data were processed

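The deposited peak lists of 2 YBX1 immunoprecipitations were used; 1 input library entered through the authors' calling. The authors ran MACS 1.4.2 for every replicate separately against that input, with a p-value cutoff of 1e-05 and a fragment shift of 20 bp, per the file headers. Bowtie2, Trimmomatic 0.36, bcl2fastq 02.14.01.07 and hg19 are named in the submitters' processing notes. The alignment named in the replicate 2 header carries another number than the label, which was followed. The replicates held 10010819 and 9926271 kept tags and the input 74780414, per the file headers.

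Tags are counts per peak made by the authors, per the file headers. Fold enrichment is the deposited ratio, and the deposited score, 10 times −log10 of the caller's p-value, was recognised from its values because its column name was lost. The deposited false discovery rate was 0 percent throughout. Width and summit are deposited in bp. Position, gene and repeat labels are the authors'. How the authors filtered the lists is not stated in the labels or headers.

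Overlap meant at least 1 bp. Pairs were peaks that were each other's longest overlap. Python 3.11.15, pandas 2.3.3 and scipy 1.17.1 were used, and overlap and distance functions were tested on simulated intervals. No hg19 genome was used; RefSeq (GRCh38.p14) gave names and the promoter. All comparisons are descriptions. The named genes are the 3 members, genes named with them, genes of the family, let-7 and partner lists, and, in each list, the 3 exon peaks of equal tags and nearest fold; some of these genes are not reported here. Members and lists were chosen with earlier results of these data known. Alternatives were a p-value of at most 1e-10, other overlap rules and other sets of exon peaks.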

Additional observations from a re-analysis of the deposited data

How the results depend on the processing

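Of 31 values recomputed under alternatives, 20 stayed within 1.5 times a count or within the 95% interval of a share, and 11 moved. At a p-value of at most 1e-10, 3 peaks of the 3 genes were left in each replicate, the overlapping CSDC2 and LIN28B peaks, and neither YBX1 peak was among them; genes with exon peaks in both replicates then numbered 25, and overlapping exon peaks made up 45.6% of replicate 1 and 88.6% of replicate 2. With peaks of the other list within 500 bp counted, these shares were 50.5% and 58.3%. The share of other exon peaks below the YBX1 peak was 31.2% in replicate 1 against coding-exon labels alone, a choice made after the data were seen, and 16% in replicate 2 by score. By tags per 100 bp it was 2.93% and 11.3%. All 3 genes were named without replicate 1 and without replicate 2, so the count stayed at 3. No paired analysis was possible because the replicates form 1 group and the input has no peak list. Depth limits the YBX1 peaks, of 7 and 5 tags, and the third CSDC2 peaks, of 7 and 6.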
